A study of Mus musculus with 29 samples.

Results

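Bone marrow of mice with the MLL-ENL-ERtm fusion in the state labelled proliferation was compared with bone marrow of wild-type mice, on 4 arrays against 4. These are 8 of the 29 arrays of the series and were chosen by their titles, from bone marrow alone. The proliferation mice carried the fusion of MLL and ENL joined to ERtm, a mutated hormone-binding domain of the oestrogen receptor, and had received tamoxifen in the chow (300 mg/kg) for 7 months. The wild-type mice had received the same chow, array 1 after 8 months and arrays 2 to 4 after 7 months, so tamoxifen itself was shared by both groups. The labels describe the proliferation state as one in which marrow cells divide fast and damage signalling is low. Each array is labelled a biological replicate. The promoter of the transgene, the strain and the sex of the mice are not given in the sources used here. Values are log2 levels of a gene, and a difference is given on that log2 scale with its standard error from a limma fit over all 15 marrow arrays, unless stated otherwise.

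MLL, encoded by Kmt2a, is a histone methyltransferase that keeps the posterior Hoxa genes active in blood stem and progenitor cells and lets them be silenced as the cells mature. Fusions with ENL, encoded by Mllt1, recruit the elongation machinery to such genes and hold them active. In the model, tamoxifen makes the fusion protein active. Bone marrow holds granulocyte, monocyte, red cell and megakaryocyte precursors as well as B cell precursors, so a change in bulk marrow can be a change in cell numbers or in RNA per cell, and these cannot be told apart here.

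Of 12393 genes tested, 35 passed an adjusted p of 0.05 (0.282% of genes), 14 higher (0.113%) and 21 lower (0.169%) in proliferation marrow. The genes that rose were headed by Hoxa10, Esr1, Hoxa9, Hpgd and Hoxa5, and those that fell by the B lineage genes Vpreb1, Spib, Fcrla and Bach2, the macrophage gene Cd5l and the placeholder names D13Ertd608e and Gm16793. Without the adjustment, 1227 genes (9.90%) had p below 0.05, 881 higher (7.11%) and 346 lower (2.79%). For each of the 35 genes the 4 proliferation arrays lay wholly above or wholly below the 4 wild-type arrays. Among all genes, 7.45% had all 4 proliferation arrays above every wild-type array, and 2.29% had all 4 below. A fold is not given where the lower group lay within 1 log2 unit of the lower quartile of the arrays (between 6.13 and 6.32), which was so for 16 of the 35 genes, since the difference of such a gene may be understated.

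**Figure D1:**
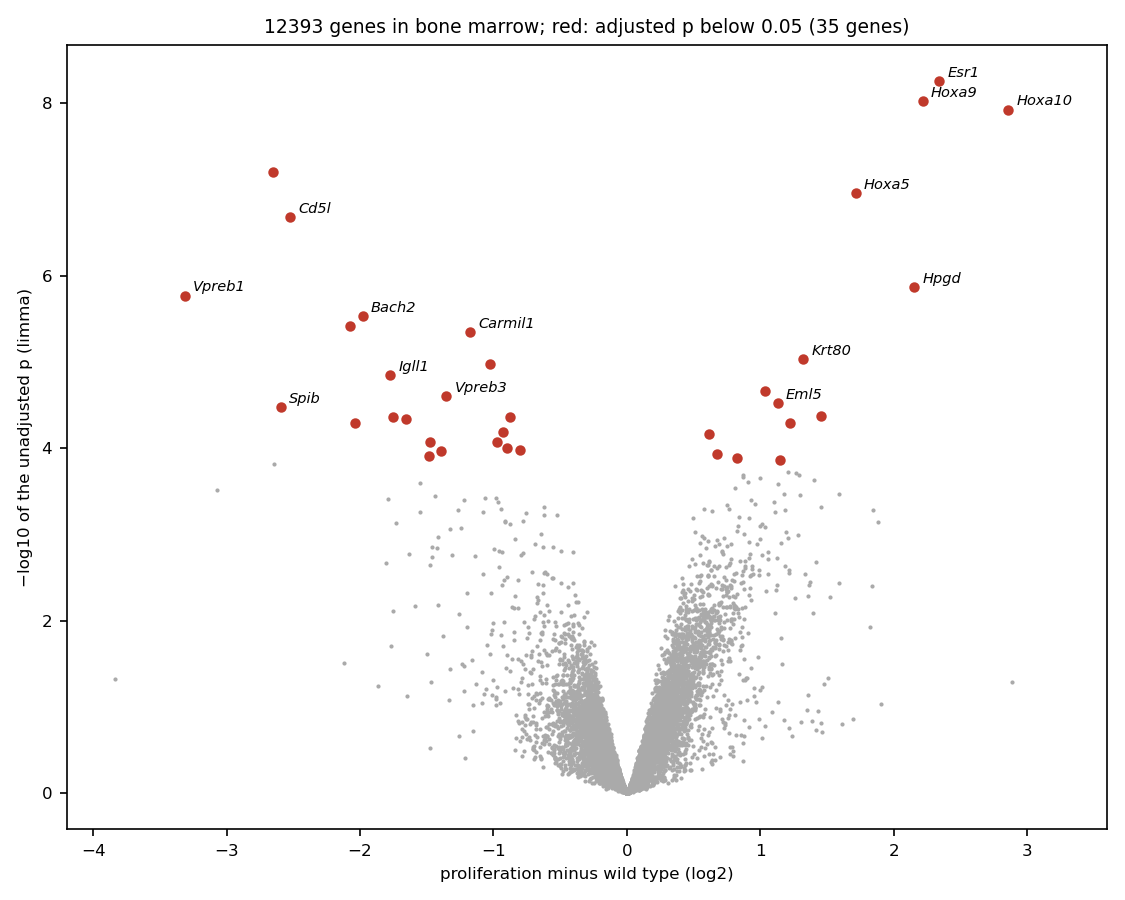
Each of the 12393 points is 1 gene, with the log2 difference of proliferation minus wild-type marrow on the horizontal axis and minus log10 of the unadjusted limma p on the vertical axis. Red points are the 35 genes past an adjusted p of 0.05, with Hoxa10, Hoxa9 and Esr1 at the upper right and Vpreb1, Spib and Cd5l at the left.

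Before the genes are described, 3 features of the arrays bear on them. Poly-A spike-in controls, bacterial transcripts added to RNA before labelling, had a mean log2 level of 8.86 to 8.94 on proliferation 2 to 4 and of 6.15 on proliferation 1. They lay at 8.65 and 8.96 on wild type 3 and 4, but at 5.78 and 5.88 on wild type 1 and 2. The same split ran through the other marrow states. Xist, the X-inactivation RNA of female cells, was high on all 4 proliferation arrays (12.72 to 13.32) and on wild type 3 and 4 (13.04 and 13.11), and low on wild type 1 and 2 (7.21 and 7.60). Within wild type the spike-in signal and the sex of the mouse therefore cannot be told apart, while proliferation 2 to 4 and wild type 3 and 4 were alike in both. Proliferation 1 stood apart by skeletal muscle RNA: the mean level of 27 muscle genes was 3.40 above the wild-type mean there, against -0.07 to -0.01 on proliferation 2 to 4 and -0.12 to 0.17 on wild type. Fat was less plain, since the mean of 20 adipocyte genes was 0.38 above the wild-type mean on proliferation 1 and 0.23 above it on wild type 2, and Cfd and Plin1 were not measured. Results below are therefore also given within the 5 arrays of high spike-in signal, called the high spike-in arrays, which leaves out proliferation 1. The granulocyte genes Mpo, Camp, Ltf and S100a8, which mark marrow, lay above 14.7 on all 8 arrays.

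Leaving out 1 array at a time changed the count of 35 by over 1.5 times in each case: it was 19, 15, 14 and 20 without proliferation 1 to 4, and 18, 73, 12 and 17 without wild type 1 to 4. Passing in all 8 of these fits were Hoxa10, Hoxa9, Hoxa5, Esr1 and Hpgd among the genes that rose, and Vpreb1, Cd5l, Fcrla, Bach2, Carmil1, Cmah and the placeholder D13Ertd608e among those that fell, 12 in all. Adgre1 and Ly6d passed in none of the 8. In the fit with the spike-in split as a block, 46 genes passed (0.371% of genes), 19 higher (0.153%) and 27 lower (0.218%), and these included all 35. Within the high spike-in arrays 395 genes passed (3.19%), 278 higher (2.24%) and 117 lower (0.944%), and 34 of the 35 were among them in the same direction. All 35 differences also kept their sign on the low spike-in arrays, which are 1 array of proliferation against 2 of wild type. The lack of overlap between the groups fixed this in advance, so it adds no support. The transition and senescence arrays of the same class helped to estimate the spread in these fits, which were added after the split had been seen.

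The genes of the parts of the fusion were compared first. Which part of each transcript the probe sets read was not checked, so whether they read the fusion is not known. Esr1, which encodes the oestrogen receptor whose hormone-binding domain forms ERtm, read 8.66, 8.13, 8.45 and 8.30 on proliferation 1 to 4 and 5.60, 5.75, 6.65 and 6.18 on wild type 1 to 4. All 4 proliferation arrays were far above wild type, without overlap, and the 2 wild-type arrays of high spike-in signal were the brighter ones of their group. The difference was 2.34 ± 0.19 (adjusted p = 4.88e-05, limma) and 1.88 within the high spike-in arrays. Kmt2a lay between 9.63 and 10.19 in proliferation and between 9.53 and 10.08 in wild type, a difference of 0.14 ± 0.16 (adjusted p = 0.850, limma). Mllt1 differed by 0.05 ± 0.15 (adjusted p = 0.959, limma). The groups overlapped for both. Among 15 measured genes of the construct, of the MLL complex and of its elongation partners, Esr1 alone passed, against 0.113% of all genes called higher. Another 3 lay above every wild-type array without passing, against 7.45% of all genes, among them Cdk9 (0.45 ± 0.14) and Ell (0.54 ± 0.22). Cdk9 is the kinase of the elongation factor P-TEFb and Ell is an elongation factor. The third was Mllt10, a partner of other MLL fusions, at 0.26 ± 0.14.

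The Hoxa genes, homeobox transcription factors of stem and progenitor cells, rose as a block of neighbours. Hoxa9 read 12.93, 13.29, 13.30 and 13.28 in proliferation and 10.81, 10.96, 10.86 and 11.30 in wild type. The lowest proliferation array, number 1, was still well above the highest wild-type array. The difference was 2.22 ± 0.19, or 4.65-fold (adjusted p = 4.88e-05, limma), and 2.21 within the high spike-in arrays. A second, dimmer probe set of Hoxa9 gave 0.68. Hoxa10 read 9.03, 9.06, 9.18 and 9.29 in proliferation and 6.24, 6.59, 6.33 and 5.95 in wild type. Its wild-type level was that of a dim gene, and its difference was 2.86 ± 0.25 (adjusted p = 4.88e-05, limma). Hoxa5 read 9.11, 8.64, 8.58 and 8.30 against 7.22, 6.86, 6.94 and 6.76, a difference of 1.72 ± 0.18 (adjusted p = 0.000271, limma). Hoxa7 rose less, by 0.62 ± 0.11 or 1.53-fold (adjusted p = 0.0321, limma), from 8.19 to 8.45 in wild type to 8.92 to 9.07 in proliferation.

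The other 5 Hoxa genes analysed here did not pass. Hoxa2, Hoxa4 and Hoxa11 had wild-type arrays between 4.77 and 5.66 and differences of 0.20, 0.20 and 0.12. These 3 were dim on all 8 arrays. Hoxa3, at 7.24 to 7.87 in wild type, differed by 0.03, and Hoxa13 by -0.20. Thus 4 of 9 members analysed here rose and none fell, against 0.113% of all genes called higher, and the list median was 0.20 against 0.01 for all genes. The count of 4 was not steady. Hoxa7 passed in 1 of the 8 fits with 1 array left out, while Hoxa5, Hoxa9 and Hoxa10 passed in all 8. The mean over the 9 genes was 0.84 to 0.89 above the wild-type mean on each proliferation array, and between -0.06 and 0.06 on each wild-type array, so no array stood apart.

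Partners and other targets of MLL fusions moved less. Meis1, the homeobox cofactor of Hoxa9, read 9.64, 9.45, 9.54 and 9.37 in proliferation and 8.55, 8.74, 8.47 and 8.60 in wild type. The groups did not overlap, and the difference was 0.91 ± 0.19 but missed the threshold (adjusted p = 0.0684, limma). Pbx3, a further cofactor of Hox proteins, did not overlap either, at 1.22 ± 0.34 (adjusted p = 0.193, limma) and 0.84 within the high spike-in arrays. Jmjd1c, a histone demethylase, was 0.51 ± 0.16 higher without overlap. Mef2c, Myb, Flt3, Lmo2, Gfi1 and Id2 overlapped, with differences between 0.05 and 0.40. None of 15 measured members passed by limma, and 4 had an unadjusted p below 0.05, all higher, against 7.11% of all genes. Of 24 stem and progenitor genes none passed either, 2 were higher at that level, near that share, and the list median was 0.06.

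**Figure D2:**
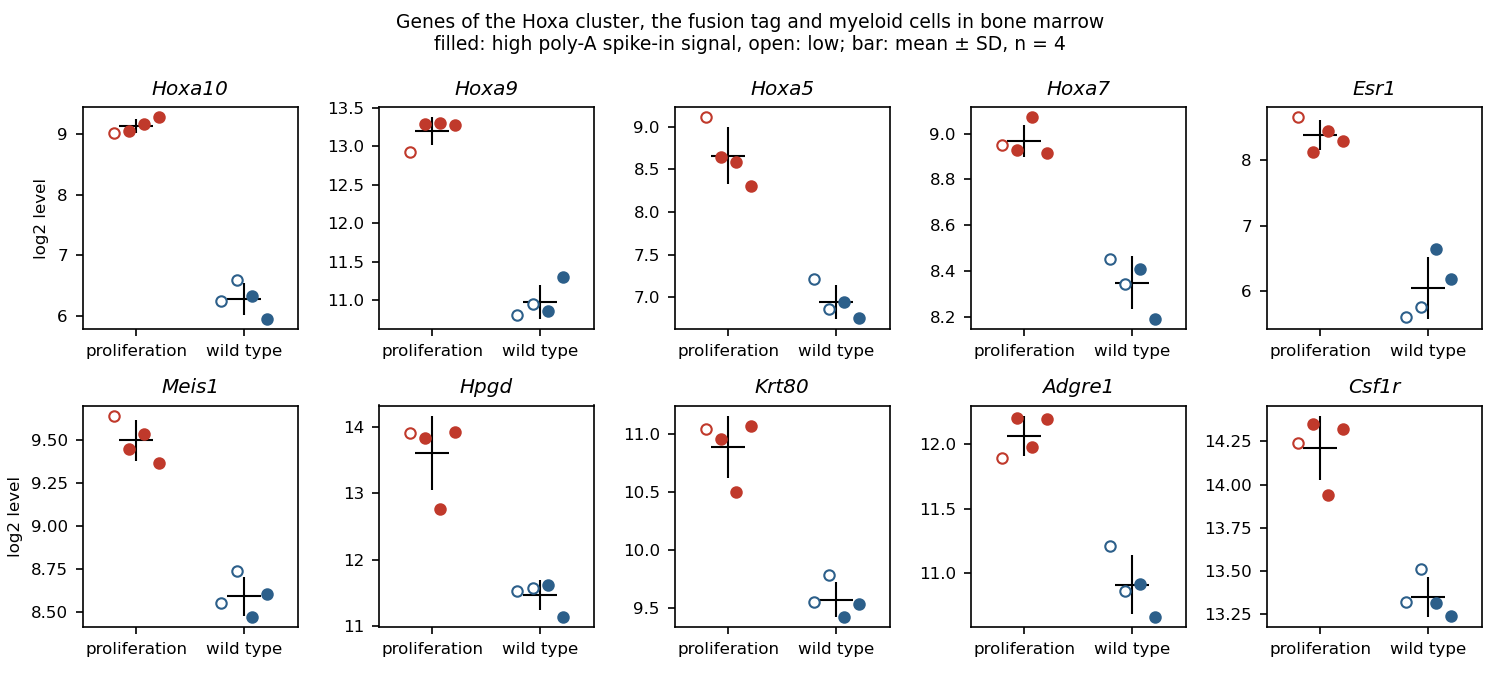
Each panel shows the log2 level of 1 gene on the 4 proliferation and 4 wild-type marrow arrays, with a bar for the mean and SD. Filled points are arrays of high poly-A spike-in signal and open points arrays of low signal. In all 10 panels the 4 proliferation arrays lie above the 4 wild-type arrays, and Hoxa9 runs from 12.93 to 13.30 against 10.81 to 11.30.

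Among genes of the B lineage, 9 fell and none rose. Early B cell precursors make a surrogate light chain from VPREB1 and IGLL1 that pairs with the first heavy chain, and the factors EBF1, PAX5 and FOXO1 fix the lineage. Vpreb1 read 6.99, 6.56, 6.61 and 6.27 in proliferation and 9.93, 9.30, 9.73 and 10.73 in wild type. Every proliferation array was near the dim end, and wild type 2 was the lowest of the controls. The difference was -3.32 ± 0.43 (adjusted p = 0.00262, limma) and -3.75 within the high spike-in arrays. Igll1 read 7.19, 7.28, 7.20 and 7.71 against 9.00, 8.52, 9.10 and 9.85, a difference of -1.77 ± 0.28 (adjusted p = 0.0126, limma). Its dimmer probe set differed by -0.09. Vpreb3, a chaperone of the pre-B cell receptor, fell by 1.35 ± 0.22 on the log2 scale (adjusted p = 0.0191, limma), from 7.39 to 8.49 in wild type to 6.71 to 7.08.

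Vpreb1 and Igll1 are neighbours on chromosome 16, and their proximal promoters are shown with those of Spib and Hoxa9, which were among the genes that fell and rose most. Each run holds the 250 bases before the annotated start in RefSeq (GRCm38.p6), 5′ to 3′ on the gene's strand, which is the minus strand for all 4. Capitals mark CCCNNGGG on either strand, the core of the motif of EBF1. The windows are chr16:16869256-16869505 for Vpreb1, chr16:16863986-16864235 for Igll1, chr7:44532072-44532321 for Spib and chr6:52227371-52227620 for Hoxa9.
Vpreb1: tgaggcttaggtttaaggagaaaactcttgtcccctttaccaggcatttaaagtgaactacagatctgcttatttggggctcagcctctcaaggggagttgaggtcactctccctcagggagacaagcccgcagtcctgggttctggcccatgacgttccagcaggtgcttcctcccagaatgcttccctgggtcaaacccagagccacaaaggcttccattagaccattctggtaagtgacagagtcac
Igll1: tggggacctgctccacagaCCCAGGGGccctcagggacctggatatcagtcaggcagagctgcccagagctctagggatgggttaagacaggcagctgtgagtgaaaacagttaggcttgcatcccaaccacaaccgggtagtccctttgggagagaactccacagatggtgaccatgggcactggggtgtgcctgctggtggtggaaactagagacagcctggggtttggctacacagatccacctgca
Spib: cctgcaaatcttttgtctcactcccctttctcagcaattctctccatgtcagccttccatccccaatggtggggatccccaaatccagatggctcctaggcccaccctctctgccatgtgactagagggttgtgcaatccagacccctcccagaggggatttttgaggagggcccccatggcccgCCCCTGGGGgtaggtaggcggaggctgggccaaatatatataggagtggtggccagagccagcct
Hoxa9: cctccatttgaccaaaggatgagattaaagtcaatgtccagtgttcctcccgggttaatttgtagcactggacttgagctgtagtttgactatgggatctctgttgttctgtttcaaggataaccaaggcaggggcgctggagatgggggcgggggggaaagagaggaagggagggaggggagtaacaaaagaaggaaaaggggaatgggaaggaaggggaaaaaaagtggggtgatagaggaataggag
The core stands 231 bases before the start of Igll1 and at 2 overlapping places, 65 and 64 bases before the start, in Spib. It is absent from these letters of Vpreb1 and Hoxa9. Of the 9 B lymphoid genes called lower, 8 had a window and 2 of them held the core (25%), against 17.8% of the 9887 tested genes with a window and 26.7% of the 15 genes with a window among all that fell. The PU.1 and Spi-B motif GAGGAAGT was in none of the 8 and in 2.66% of tested genes, the E-box CAGCTG in 25% against 14.5%, and TATAAA in 12.5% against 10.7%. Both strands were searched, and a match of CAGCTG, its own reverse complement, was counted once. These are matches of letters, with too few genes to set the shares apart.

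Cd79b and Blnk, signalling genes of the pre-B and B cell receptor, fell as well. Cd79b, a signalling chain of the receptor, read 9.24, 9.77, 9.63 and 10.16 in proliferation and 11.22, 10.42, 11.74 and 11.32 in wild type. The groups did not overlap, and the difference was -1.48 ± 0.27, which is 2.78-fold lower (adjusted p = 0.0377, limma). Cd79a, the other chain, did not overlap either but missed the threshold at -1.46 ± 0.37 (adjusted p = 0.147, limma). Blnk, the adaptor below the receptor, was 2.62-fold lower (-1.39 ± 0.26, adjusted p = 0.0423, limma). Its difference was -0.58 on the low spike-in arrays and -1.83 on the high ones. Of the transcription factors, Bach2, which restrains B cell maturation, read 7.47, 7.66, 6.64 and 7.31 against 9.59, 8.38, 9.51 and 9.52. Wild type 2 lay closest to the proliferation arrays, and the difference was -1.98 ± 0.27 (adjusted p = 0.00403, limma).

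Rag1, the recombinase of antigen receptor genes, read 5.45, 5.36, 7.28 and 5.59 in proliferation and 9.87, 7.25, 8.99 and 9.87 in wild type. Proliferation 3 reached wild type 2, so the groups overlapped by these 2 arrays. The difference of -3.08 ± 0.65 missed the threshold (adjusted p = 0.0792, limma) and passed with the spike-in split as a block, at -3.27 ± 0.64 (adjusted p = 0.0479, limma). Ebf1 was -1.79 ± 0.39 lower without overlap (adjusted p = 0.0859, limma). Il7r, the receptor of the cytokine that sustains the precursors, differed by -1.05 ± 0.40, and Foxo1 by -0.63 ± 0.16, both with overlap.

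Among mature B cell genes, Spib, an Ets factor of B and plasmacytoid dendritic cells, read 7.46, 8.49, 8.29 and 9.20 in proliferation and 11.47, 10.11, 11.22 and 11.01 in wild type. Proliferation 1 was the lowest of all arrays, and the difference was -2.59 ± 0.44, or 6.04-fold lower (adjusted p = 0.0231, limma). Fcrla, an Fc receptor-like protein inside B cells, fell from 8.54 to 9.66 in wild type to 7.11 to 7.32, by 2.08 ± 0.29 on the log2 scale (adjusted p = 0.00467, limma). Fcer2a, which encodes CD23, fell by 1.65 ± 0.29 (adjusted p = 0.0256, limma), and its dimmer probe set differed by -0.25. Cr2, Cd72, Pou2af1, Blk, Cxcr5 and Ralgps2 did not overlap between the groups, with differences from -0.92 to -1.73, and did not pass.

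In all, 6 of 22 early B precursor genes and 3 of 23 mature B genes fell and none rose, against 0.169% of all genes called lower. The members without overlap were 8 of 22 and 9 of 23, all lower, against 2.29% of all genes. The list medians were -0.87 and -0.92, against 0.01 for all genes, and -1.15 and -0.99 within the high spike-in arrays. The counts moved with the arrays and the fit. Within the high spike-in arrays 12 and 8 members fell, against 0.944% of all genes, and without wild type 2 they were 10 and 9, against 0.403%. They were 2 and 1 without proliferation 3 (0.0646% of all genes lower), without wild type 3 (0.0565%) and with the Xist level as covariate (0.0565%). On the low spike-in arrays alone they were 1 and 0, and that 1 gene was the only one called lower among all genes (0.00807%). The early B mean was 0.84 to 1.20 below the wild-type mean on the proliferation arrays. Wild type 2 was itself 0.56 below that mean, and the other wild-type arrays were 0.17 to 0.22 above it. Several B cell genes that other cells also use did not pass: Cd24a differed by 0.04, Cd37 by 0.16, Btk by 0.15 and Syk by 0.29. Plasma cell genes did not pass in any case of 11, with 2 at an unadjusted p below 0.05, both lower, against 2.79% of all genes. Ighm, the heavy chain of IgM, lay between 14.63 and 15.09 in proliferation and between 14.47 and 15.10 in wild type, and Jchain differed by -0.20 ± 0.22.

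**Figure D3:**
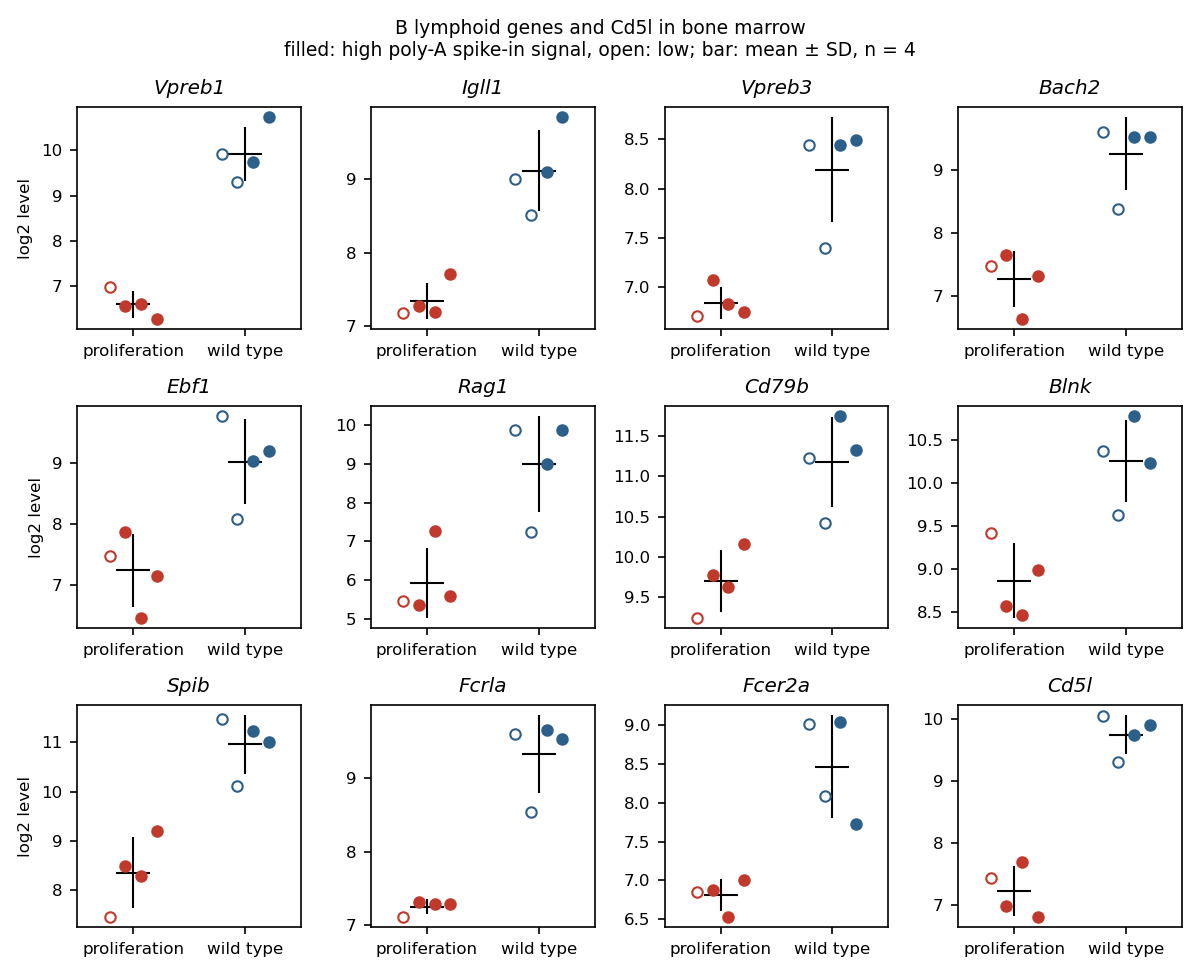
Each panel gives the log2 level of 1 gene on the 4 proliferation and 4 wild-type marrow arrays, with mean and SD. Filled points are arrays of high poly-A spike-in signal. In 11 of 12 panels the groups are apart, and in that of Rag1 proliferation 3 (7.28) reaches wild type 2 (7.25).

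Ly6d, Bst2, Sit1 and Pacsin1 fell as well. Ly6d, a surface protein of lymphoid progenitors committed to the B lineage, read 8.36, 7.75, 8.13 and 8.14 in proliferation and 9.58, 9.69, 9.62 and 9.43 in wild type, 2.79-fold lower (-1.48 ± 0.29, adjusted p = 0.0465, limma). Bst2, an interferon-induced protein that marks plasmacytoid dendritic cells, was 1.90-fold lower (-0.93 ± 0.17, adjusted p = 0.0317, limma). Sit1, an adaptor of lymphocyte receptors, fell by 0.80 ± 0.15, and Pacsin1, an endocytosis protein, by 0.88 ± 0.15. A dimmer probe set of Pacsin1 differed by -0.38. Of 19 dendritic and MHC class II genes 2 fell, Ly6d and Bst2, against 0.169% of all genes. At an unadjusted p below 0.05, 2 were higher and 5 lower, against 7.11% and 2.79% of all genes. Besides Ly6d and Bst2, the lower ones were Cd83 (-0.67), without overlap, and Ccr9 (-1.59) and H2-Oa (-0.47), with overlap. Itgax (0.85), without overlap, and Flt3 (0.40), with overlap, were higher. H2-Aa, H2-Eb1 and Cd74 overlapped with differences from 0.08 to 0.15. No T cell gene of 19 passed, with 1 higher and 1 lower at an unadjusted p below 0.05. No NK or cytotoxic gene of 16 passed, with 1 higher and 3 lower at that level, against 7.11% of all genes higher and 2.79% lower. Below 0 lay 15 of the 19 T cell and 14 of the 16 NK genes, against 48.2% of all genes, with list medians of -0.29 each. The higher ones were Cd3d, a chain of the T cell receptor complex, at 0.67 ± 0.25 without overlap, and Gzmb, the protease granzyme B, at 1.11 ± 0.36 with overlap. The lower T cell gene was Ccr7, the receptor that guides lymphocytes to lymph nodes, at -1.26 ± 0.28 without overlap (adjusted p = 0.0929, limma). The lower NK genes were Klrg1 (-0.56 ± 0.16) and Ccl5 (-0.86 ± 0.27), without overlap, and Klrd1 (-0.65 ± 0.21), with overlap.

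Monocyte and macrophage genes moved both ways. Adgre1, a surface marker of mouse macrophages, read 11.89, 12.20, 11.98 and 12.19 in proliferation and 11.21, 10.86, 10.92 and 10.66 in wild type. The groups did not overlap, and Adgre1 was 2.22-fold higher (1.15 ± 0.22, adjusted p = 0.0482, limma). Adgre4, a related adhesion receptor of myeloid cells, was 2.33-fold higher (1.22 ± 0.22, adjusted p = 0.0265, limma). Cd5l, a secreted protein of resident tissue macrophages, fell instead, from 10.04, 9.31, 9.73 and 9.90 in wild type to 7.43, 6.98, 7.69 and 6.79. All proliferation arrays were far below the controls, and the difference was -2.52 ± 0.28 (adjusted p = 0.000431, limma).

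Csf1r, the receptor of the macrophage growth factor, lay between 13.94 and 14.35 in proliferation and between 13.24 and 13.51 in wild type, 0.87 ± 0.18 higher (adjusted p = 0.0635, limma). Cx3cr1, a chemokine receptor of patrolling monocytes, was 1.85 ± 0.42 higher without overlap (adjusted p = 0.0929, limma). The Fc receptors Fcgr4 (0.91 ± 0.23) and Fcgr3 (0.54 ± 0.18) also did not overlap. Of 30 measured members 15 lay above 0 and 15 below, and the list median was 0.05. Of these 30, 1 rose and 1 fell, against 0.113% and 0.169% of all genes. Wholly above wild type lay 6, against 7.45% of all genes, and wholly below 1, against 2.29%. At an unadjusted p below 0.05, 7 were higher and 4 lower, against 7.11% and 2.79% of all genes. Within the high spike-in arrays 6 rose and 1 fell, against 2.24% of all genes higher and 0.944% lower.

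Hpgd, the enzyme that inactivates prostaglandins, was among the largest rises. It read 13.91, 13.84, 12.77 and 13.93 in proliferation and 11.53, 11.57, 11.62 and 11.13 in wild type. Proliferation 3 was the lowest of its group but above every control, and Hpgd was 4.45-fold higher (2.16 ± 0.27, adjusted p = 0.00238, limma). Apoc2, a cofactor of lipoprotein lipase, was 2.74-fold higher (1.46 ± 0.25, adjusted p = 0.0256, limma). Krt80, a keratin, was 2.50-fold higher (1.32 ± 0.20, adjusted p = 0.00942, limma), with 10.50 to 11.07 against 9.42 to 9.79. Eml5, a microtubule-associated protein, rose by 1.13 ± 0.19 and Baz2b, a bromodomain protein of chromatin, by 1.03 ± 0.17. Dimmer probe sets of Eml5 gave 0.54 and 0.37. The adhesion molecule L1cam rose by 0.83 ± 0.16 on its brightest probe set, and its dimmer one gave 0.23. Cdk14 rose by 0.68 ± 0.13 on its brightest probe set, and its other probe sets gave 0.03 and -0.10.

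Further genes that fell belong to no list. The placeholder D13Ertd608e, lowest in p of the genes that fell, lay between 8.54 and 9.74 in wild type and between 6.08 and 6.82 in proliferation, a difference of -2.65 ± 0.26 (adjusted p = 0.000193, limma). Gm16793, the other placeholder, differed by -2.04 ± 0.36 (adjusted p = 0.0265, limma), and its wild-type arrays were spread from 6.71 to 8.69. Cmah, the enzyme that makes the sialic acid Neu5Gc, was 2.03-fold lower (-1.02 ± 0.16, adjusted p = 0.0100, limma). Akap12, a scaffold of protein kinase A, was 3.37-fold lower, and Cnn3, an actin-binding calponin, was 1.96-fold lower. Cnn3 stood at 10.62 on proliferation 1 and at 10.01 to 10.12 on the others. Carmil1, a regulator of actin capping, fell by 1.18 ± 0.17, and Slc41a2, a magnesium transporter, by 0.90 ± 0.17.

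No granulocyte gene passed the test. Mpo, the peroxidase of primary granules, read 14.78 to 14.95 in proliferation and 14.81 to 14.88 in wild type, and Ctsg differed by -0.41 ± 0.21. None of 12 primary granule genes passed, 1 had an unadjusted p below 0.05, and their median was -0.02. None of 28 secondary granule and late neutrophil genes passed, and 7 had an unadjusted p below 0.05, all higher, against 7.11% of all genes. Of these 28, 26 lay above 0, against 51.8% of all genes, with a median of 0.17. Wholly above wild type were 9, against 7.45% of all genes. Csf3r, the receptor of the granulocyte growth factor, differed by 0.92 ± 0.27 (adjusted p = 0.220, limma), and Ltf, Camp and Ngp, near the top of the scale at 14.90 to 15.31, by 0.06 to 0.11. Within the high spike-in arrays 5 of the 28 rose, against 2.24% of all genes. The myeloid transcription factors Spi1, Cebpd and Klf4 differed by 0.64, 0.54 and 0.62 with overlap. None of 17 passed, and 4 had an unadjusted p below 0.05, all higher, against 7.11% of all genes.

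No division gene passed the test. Mki67, the proliferation antigen, read 13.63, 14.45, 14.52 and 14.38 in proliferation and 14.20, 13.92, 14.58 and 14.63 in wild type. Proliferation 1 was the lowest of the 8 arrays and the other 3 lay within the range of the controls. The difference was -0.09 ± 0.21 (adjusted p = 0.942, limma), with a 95% interval from -0.54 to 0.37. None of 34 replication and G1/S genes passed, and 2 had an unadjusted p below 0.05, both lower. None of 34 mitosis and G2/M genes passed either, again with 2 lower at that level, against 2.79% of all genes. All 34 members of each list had a difference below 0, against 48.2% of all genes, with medians of -0.33 and -0.37.

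These medians move with the arrays. The replication mean stood at -0.97 on proliferation 1, -0.38 on 2, 0.02 on 3 and -0.07 on 4, relative to the wild-type mean, and at -0.29, -0.43, 0.29 and 0.43 on wild type 1 to 4. Within wild type the 2 arrays of low spike-in signal were thus the low ones. Without proliferation 1 the medians were -0.11 and -0.16, and within the high spike-in arrays they were -0.50 and -0.53, against -0.02 for all genes. Red cell genes were likewise lowest on proliferation 1, and lower on wild type 1 and 2 than on wild type 3 and 4, at -1.20, -0.46, 0.00 and 0.14 in proliferation and -0.49, -0.60, 0.51 and 0.59 in wild type, and none of 34 passed, with 1 at an unadjusted p below 0.05. The part of red cell precursors in the levels of division genes was not tested. Ccnd1, cyclin D1, was lower without overlap, at -0.92 ± 0.26, and Fen1, a flap nuclease of replication, at -0.31 ± 0.18.

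DNA damage and p53 genes were compared because the labels name a weak damage response. Of 32 damage response genes none passed, and 1 had an unadjusted p below 0.05, lower, against 2.79% of all genes. The list median of -0.22 moved with the arrays. It was -0.05 without proliferation 1, and -0.37 within the high spike-in arrays, against -0.02 for all genes. Chek1, the checkpoint kinase of replication stress, read 9.59, 10.23, 10.58 and 10.36 against 10.16, 10.24, 10.84 and 11.02. The groups overlapped, and the difference was -0.38 ± 0.24 (adjusted p = 0.663, limma). Of 29 p53 target genes none passed, and 6 had an unadjusted p below 0.05, all higher, against 7.11% of all genes. Wholly above wild type lay 7 of the 29, against 7.45% of all genes. Pmaip1, which encodes the cell death protein NOXA, was 1.28 ± 0.31 higher without overlap (adjusted p = 0.130, limma), and Mdm2, the p53 ligase, 0.38 ± 0.13. Cdkn1a, which encodes p21, overlapped, at 0.31 ± 0.20 (adjusted p = 0.669, limma). The p53 list median was 0.24, and 0.17 without proliferation 1.

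Cdkn2a, the senescence locus of p16 and p19, was dim on all 8 arrays (5.73 to 6.13) and differed by -0.07 ± 0.15. Il6, a cytokine of senescent cells, was dim as well (5.09 to 6.08), at 0.27 ± 0.28. Of 39 inflammatory genes Hpgd alone passed, higher, against 0.113% of all genes. At an unadjusted p below 0.05, 5 were higher and 3 lower, against 7.11% and 2.79% of all genes. Wholly above wild type lay 5 and wholly below 1, against 7.45% and 2.29% of all genes. The chemokine Ccl9, 1.01 ± 0.24 higher, was among those above. Of 32 interferon-induced genes Bst2 alone passed, lower, against 0.169% of all genes, and 8 had an unadjusted p below 0.05, all lower, against 2.79%. The median of that list was -0.28. Its mean on wild type 1 was 0.37 below the wild-type mean, within the range of the proliferation arrays, which lay 0.03 to 0.51 below it.

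**Figure D4:**
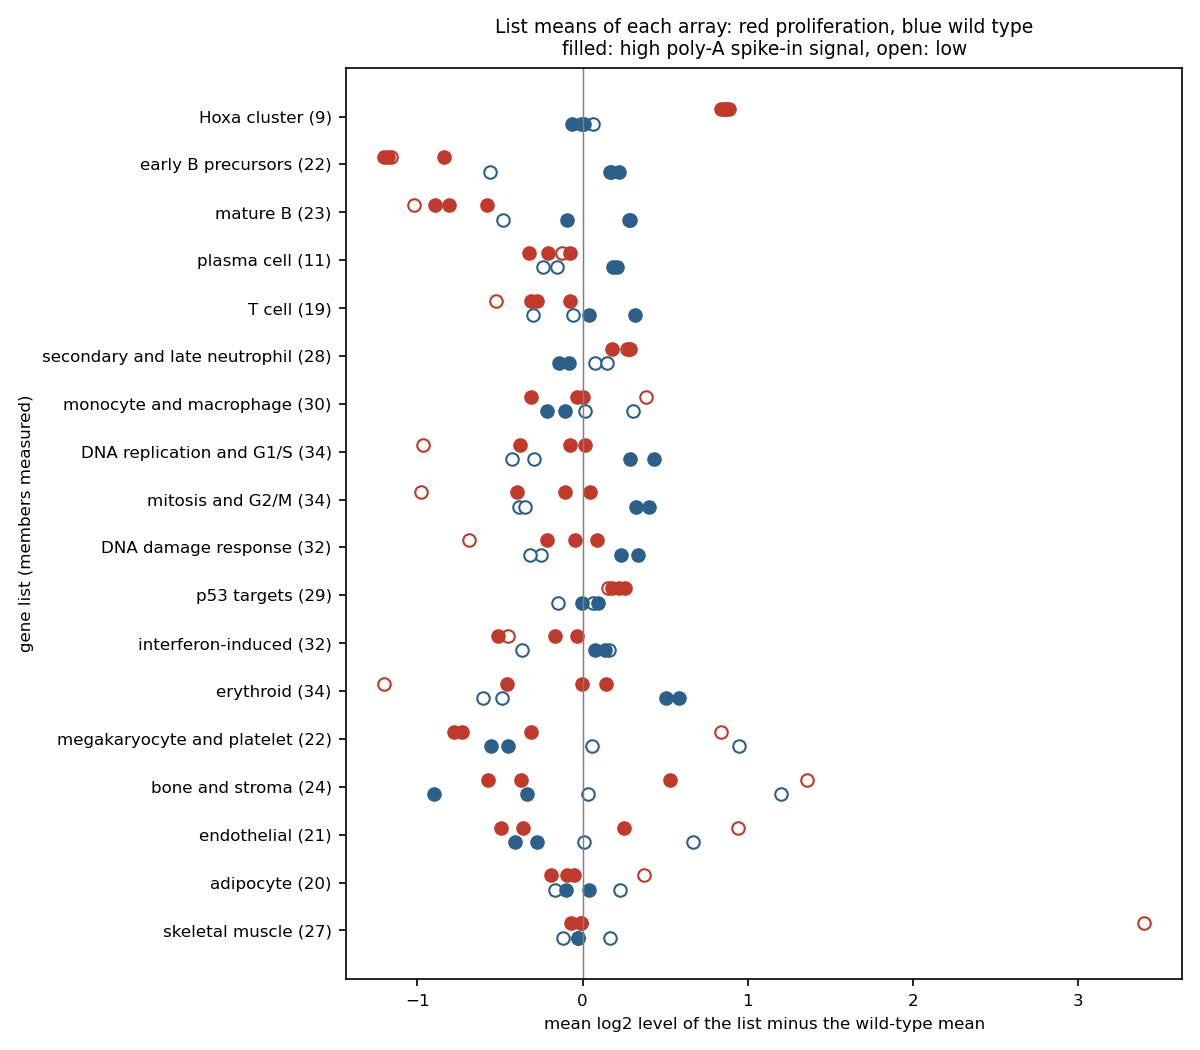
Each row is a gene list with the number of members measured, and each point the mean log2 level of its members on 1 array minus the mean of the 4 wild-type arrays. Red points are proliferation and blue points wild type, and open points have low poly-A spike-in signal. The Hoxa mean lies at 0.84 to 0.89 and the early B mean at -1.20 to -0.84 on the proliferation arrays, the division lists order by spike-in signal within wild type, and the muscle list stands at 3.40 on proliferation 1.

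The levels of muscle and stromal genes followed single arrays. None of 27 muscle genes passed, and 3 had an unadjusted p below 0.05, all higher, against 7.11% of all genes. Their median of 1.00 fell to -0.04 without proliferation 1. Myh2, a myosin of fast muscle, stood at 11.37 there and at 4.75 to 4.95 on proliferation 2 to 4. Eno3, the muscle enolase, read 10.56, 9.78, 9.88 and 9.66 in proliferation and 8.50, 8.58, 8.63 and 9.02 in wild type. Each proliferation array was above every control, and the difference was 1.29 ± 0.26 (adjusted p = 0.0635, limma) and 1.10 without proliferation 1. Ckm, muscle creatine kinase, was likewise 0.99 higher without proliferation 1. Bone and stromal genes were 1.36 above the wild-type mean on proliferation 1 and 1.20 above it on wild type 2. Megakaryocyte genes were highest on the same arrays, at 0.84 and 0.95, and their median of -0.38 became -0.78 without proliferation 1 and 0.05 without wild type 2, so it has no steady direction.

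Proliferation marrow was also set against the other fusion states, the mean of 4 transition arrays (7 to 8 months of tamoxifen) and 3 senescence arrays (8 months). No gene passed by limma (0% of genes). Of the 12393 genes 138 had an unadjusted p below 0.05, against 1227 in the comparison with wild type. Slc15a2, a peptide transporter, read 11.07, 12.29, 11.77 and 11.24 in proliferation, 8.06 to 10.93 in transition and 7.30 to 10.22 in senescence. The proliferation arrays were the highest of the fusion mice, but wild type, at 10.54 to 11.66, was as high, and the difference was 2.12 ± 0.56 (unadjusted p = 0.00193, adjusted p = 1, limma). Cxcl2, a neutrophil chemokine, was lower by -1.86 ± 0.53, with 7.04 to 7.45 in proliferation, 9.54 to 12.86 in transition and 6.27 to 8.40 in senescence. Orm1, an acute phase protein, read 8.55 to 8.95 in proliferation and 9.07 to 10.44 in the other states, a difference of -0.78 ± 0.19. The remaining genes of smallest p were Mbd6, Spire2, Synpo2 and Eno3, higher by 0.36 to 0.72. On the lower side they were Spsb4 and Slc25a10, at -0.57 and -0.35, and the placeholder D13Ertd608e, at -0.78.

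The genes without a call against the other fusion states include all 35 that passed against wild type. Hoxa9 differed between proliferation and the other states by 0.29 ± 0.17, Hoxa10 by 0.04 ± 0.22, Esr1 by 0.01 ± 0.17 and Vpreb1 by -0.43 ± 0.38 (unadjusted p between 0.110 and 0.948, limma). Others of the 35 had an unadjusted p below 0.05 in this comparison (limma). Among them were the placeholder D13Ertd608e (-0.78 ± 0.24), Bst2 (-0.33 ± 0.15), Adgre4 (0.46 ± 0.19), Krt80 (0.41 ± 0.18) and Cdk14 (0.31 ± 0.12). For Mki67, which had not passed against wild type, the difference from the other states was 0.14 ± 0.19. Against the same wild-type arrays, which the comparisons share, Hoxa10 was 2.86 higher in proliferation, 3.21 in transition and 2.44 in senescence. Vpreb1 was at -3.32, -3.45 and -2.32. Of the 35 genes, 26 also passed in transition, where 0.420% of genes passed, and 6 in senescence, where 0.0484% passed. Adgre1, Adgre4, Bst2, Cd79b, Cdk14, Krt80, Ly6d, Pacsin1 and Vpreb3 passed in neither, and their difference between the states did not pass.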

How the data were processed

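RNA of 29 marrow and spleen samples was hybridized to an Affymetrix array of 22690 probe sets, and 15 marrow arrays were used. The authors deposited log2 values per probe set, made with RMA, affy and limma per the submitters' processing notes, whose versions are not given in the sources used here. RMA aligns the distributions of the arrays, so a shift common to all genes cannot be seen. Array medians were 8.11 to 8.29 in marrow, correlations between marrow arrays 0.962 to 0.995, and the 3′ minus 5′ difference of Gapdh, a sign of RNA quality, was 1.50 to 1.65 in proliferation and 1.57 to 1.83 in wild type. Arrays have no read depth; their number limits the precision.

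Of the probe sets, 20380 had 1 gene symbol and were used, 691 had several and 1606 were unlisted; control probe sets were left out. A gene was its brightest probe set, which gave 12393 genes. No filter on dim genes was applied. A fit of 4 marrow groups with limma 3.58.1 (R 4.3.3) gave differences, standard errors and Benjamini-Hochberg p-values over all genes, threshold 0.05. The fit was tested on simulated data. The labels do not link mice through the replicate numbers, so no pairing was used. Deviations of same-numbered arrays had correlations of 0.21, -0.02, 0.55 and 0.42, within the range of -0.60 to 0.70 among arrays of unlike number. These correlations cannot decide whether mice were paired.

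The lists, members and tests were chosen with earlier results of these data known. Named were all genes past the threshold, list members past it, and up to 5 further members each by smallest p and by highest level. Between fusion states, the 5 genes of smallest p on each side were named. Names that only describe an overlap were chosen after their values were seen. Alternatives were another quantile normalization, centring, a filter, probe set means, fewer groups, eBayes options, array weights, the replicate block, Xist or Gapdh covariates and each array left out; those on spike-in signal and high Xist were added after the data were seen. Promoters are from RefSeq tables of GRCm38.p6, matched by symbol. Figures were drawn with matplotlib 3.10.9.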

Additional observations from a re-analysis of the deposited data

Results flagged for a closer look

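In groups of 4 arrays, an array was singled out where its gap to the nearest of the others as a share of the range of the group was above Dixon's 95% critical value. Chance does this in about 1 of 20 groups, and 16 of 152 groups of 4 arrays (of named genes and list means) were singled out.

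The B lymphoid values singled out wild type 2. Bach2 was 8.38 there against 9.51 to 9.59 on the other wild-type arrays, Fcrla 8.54 against 9.53 to 9.66, and Vpreb3 7.39 against 8.44 to 8.49. The mean level of the early B precursor list was 8.50 there against 9.23 to 9.28. On the proliferation side, the early B mean of proliferation 3 was 8.22 against 7.86 to 7.90 on the others. Fcrla on proliferation 1 was 7.11 against 7.29 to 7.32.

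Proliferation 1 was singled out most often. The skeletal muscle mean was 10.23 there against 6.77 to 6.83. Hoxa9 was 12.93 against 13.28 to 13.30, Mki67 13.63 against 14.38 to 14.52, Cnn3 10.62 against 10.01 to 10.12, and Pacsin1 6.56 against 6.87 to 6.93. The ribosomal protein mean was 13.84 against 14.01 to 14.05.

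Proliferation 3 had the lowest Hpgd of its group, 12.77 against 13.84 to 13.93. It also had the lowest secondary and late neutrophil mean, 13.34 against 13.44 to 13.45, and the lowest mean of myeloid transcription factors, 10.49 against 10.57 to 10.58. On wild type 1 the interferon-induced mean was 9.80 against 10.24 to 10.33.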

How the results depend on the processing

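The 35 genes of proliferation against wild type kept their sign in every fit run. In the fits on fewer arrays this was fixed in advance by the lack of overlap between the groups. The number of genes that passed was within 1.5 times of 35 after another quantile normalization (37), centring (38), probe set means (35), trend and robust options (38), the spike-in block (46), and the low spike-in (38, 37 higher) or high Xist (36) arrays alone. A like count need not be the same genes: 2 of the 35, Esr1 and Hpgd, were among the 38 on the low spike-in arrays. The count was 8 among genes above the median level, which leaves out dim genes, 125 (104 higher) with only the groups compared, 1221 with array weights, 14 with Xist and 54 with the Gapdh difference as covariate, and 395 on the high spike-in arrays; the cause was not tested. With the replicate number as a block, 18 genes passed, although the labels do not link mice through these numbers. Leaving out 1 array gave 12 (wild type 3) to 73 (wild type 2) genes. Against the other fusion states no gene passed in the planned fits, 3 passed on the high and 35 on the low spike-in arrays, where proliferation is 1 array with muscle RNA, assumed to vary like the other groups; leaving out 1 array gave 0 in each case. The megakaryocyte median of -0.38 turned to 0.39 on the low spike-in and 0.30 on the high Xist arrays, 0.18 with Xist as covariate and 0.05 without wild type 2, and the mature B median was -0.10 among genes above the median level. Dim genes limit the size of differences, as 16 of the 35 had a group near background. The arrays, 4 a group, cannot separate spike-in signal from sex within wild type.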

Other observations

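With the spike-in split as a block, 11 genes passed that had not passed without it, and they are named here after their values were seen. Podxl, a sialomucin of progenitor cells and blood vessels, was 1.29 ± 0.21 higher in proliferation marrow (adjusted p = 0.0205, limma) and 1.13 without the block. Nrg4, a neuregulin, was 1.42 ± 0.27 higher, Pde1b, a cyclic nucleotide phosphodiesterase, 1.28 ± 0.23, Klra2, a lectin-like receptor, 1.15 ± 0.21, and Kat2b, a histone acetyltransferase, 0.52 ± 0.10. Besides Rag1, the genes that were lower were Mfhas1 (-1.58 ± 0.26), Rnf157 (-1.32 ± 0.17), Klk1b27 (-1.21 ± 0.18), Pafah1b3 (-1.02 ± 0.20) and Traf3ip2 (-0.67 ± 0.12). Each of the 11 had the same sign within the high spike-in arrays.

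Of 28 immediate early and stress genes none passed, and 11 had an unadjusted p below 0.05 in limma, against 9.90% of all genes, 8 higher (7.11% of all genes) and 3 lower (2.79%). The higher ones included Atf3 (0.80 ± 0.27), Klf2 (0.72 ± 0.26) and Rgs2 (0.72 ± 0.19), and the lower ones Rgs1 (-0.91 ± 0.39) and Dusp2 (-0.70 ± 0.30). The list median was 0.21, and 7 members lay wholly above and 2 wholly below wild type, against 7.45% and 2.29% of all genes. Of 22 ribosomal protein genes and 37 respiratory chain genes none passed or had an unadjusted p below 0.05, and their medians were 0.07 and -0.02. Of 18 mast cell, basophil and eosinophil genes none passed and 1 had an unadjusted p below 0.05. Fcer1a, the IgE receptor chain, read 7.93, 6.61, 9.29 and 7.58 in proliferation and 8.71 to 9.53 in wild type, with overlap through proliferation 3.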
